A study of Mus musculus with 2 samples.

Results

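The genes described here are Ppara, Cpt1a, Ehhadh, Hadha, Acadm, Acadl, Bdh1 and Pdk4, 8 of the 32285 genes in the count tables, taken by their symbols as genes of PPARα signalling, fatty acid oxidation and ketogenesis. Their UMIs (unique molecular identifiers, each standing for 1 captured transcript) were counted in 2 single-cell RNA-seq libraries of mouse liver, 1 per genotype. The WT library came from control liver. The N-LKO library came from liver plus tumor of mice in which albumin-Cre had removed loxP-flanked NgBR (Nus1) in hepatocytes. Mice of both genotypes had been fed for 16 weeks a diet that the sample titles call HFD and the treatment labels call WD. Before loading, hepatocytes and nonparenchymal cells were mixed, and tumor cells were added for N-LKO. Genotype, tumor tissue and library therefore cannot be told apart, and with 1 library per group no difference could be tested. All intervals given here are 95% intervals that cover counting error only.

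PPARα is a nuclear receptor of hepatocytes that binds fatty acids, pairs with RXR and turns on genes of fatty acid breakdown during fasting. Fatty acids enter mitochondria through carnitine palmitoyltransferase 1 (CPT1A) and are shortened there by acyl-CoA dehydrogenases (ACADM for medium and ACADL for long chains) and the trifunctional protein (HADHA), while EHHADH does the corresponding steps in peroxisomes. In the fasted liver the acetyl-CoA made this way becomes ketone bodies, the last step of which is done by BDH1, and PDK4 spares glucose by switching off pyruvate dehydrogenase.

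In GENCODE M21 (GRCm38), the receptor gene Ppara lies on the plus strand at chr15:85734983-85802819. Cpt1a (chr19:3322334-3385733, plus strand) is the next longest, and Ehhadh (chr16:21761287-21787807, minus strand) and Bdh1 (chr16:31422280-31458901, plus strand) share a chromosome. Hadha lies at chr5:30118304-30155162, Acadm at chr3:153922357-153944632, Acadl at chr1:66830839-66863277 and Pdk4, the shortest, at chr6:5483351-5496309, all on the minus strand.

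The receptor's best-known binding element is a pair of AGGTCA half-sites in the same direction separated by 1 base of any kind. RefSeq promoter windows (build GRCm38.p6, 250 bases before to 50 after the start) were found for all 8 genes, 9 windows in all because Bdh1 has 2. None of the 9 windows held the element on either strand with up to 2 mismatches, and 3.86% of 32851 promoter windows of the same length did. The single half-site AGGTCA was present in 2 of the 9 windows and in 16.3% of all windows. Both matches are shown because they are the only exact half-sites near the starts of these genes. They are written 5′ to 3′ on the strand of the gene, and the capitals mark the half-site, which reads AGGTCA on the opposite strand.
Cpt1a, chr19:3323195-3323224, plus strand: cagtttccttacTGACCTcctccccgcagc
Acadm, chr3:153944875-153944893, minus strand: gTGACCTtcgggctccggt
The half-site began 94 bases before the Cpt1a start and 249 bases before the Acadm start, where the window ends. An absent match says only that these letters are not in this window.

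The tables held 85522287 UMIs over 100171 barcodes for WT and 87575064 UMIs over 90147 barcodes for N-LKO, and 2499 barcode sequences occurred in both libraries. Leaving out the 262 WT and 132 N-LKO hepatocyte-like cells with such a barcode gave log2 ratios of N-LKO over WT of 1.48 for Ppara, 0.24 for Ehhadh and −0.43 for Acadm, against 1.49, 0.23 and −0.43 with them. After filtering, 18434 WT and 19851 N-LKO cells remained, with medians of 1401 and 1454 UMIs. Clustering without the 8 genes and the other pathway genes gave 22 clusters, of which 5 were hepatocyte-like and held 9970 WT and 4532 N-LKO cells. Alb, the gene for serum albumin, stood at 21783 CPM (the UMIs of a gene scaled to one common total in every pool of cells) in WT hepatocyte-like cells and at 10050 CPM in N-LKO, against 5974 and 4178 CPM in endothelial-like cells. Nus1 stood at 72.8 CPM in WT against 36.5 CPM in N-LKO hepatocyte-like cells. The study's supplement places the loxP sites around exon 1 of the gene, at its 5′ end, so the 3′ counts lie outside the deleted part and do not check the label.

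The 5 hepatocyte-like clusters were split almost entirely by library, and they differed in Malat1, a nuclear RNA that is high where nuclear RNA makes up much of a droplet. Cluster 0 held 8345 WT and 95 N-LKO cells and cluster 6 held 114 WT and 1967 N-LKO cells. Both are called Malat1-intermediate, because they lay within 2 times the Malat1 level of the median hepatocyte-like cluster of each library, and together held 8691 CPM of Malat1 in WT and 4506 CPM in N-LKO. Cluster 17 (309 WT cells, 36203 CPM of Malat1) and cluster 5 (2443 N-LKO cells, 19707 CPM) are called Malat1-rich. They made up 3.10% of the hepatocyte-like cells of WT and 53.9% of those of N-LKO, shares that the mixing of cells before loading can set. Cluster 9 (1183 WT cells, 1501 CPM) is called Malat1-poor and had only 17 N-LKO cells. The name of cluster 5 rests on a score threshold set after the clusters were seen. It scored 0.109 against the threshold of 0.1, with 4 hepatocyte markers raised, where cluster 6 scored 0.764 with 12 raised. The Alb level of cluster 5, 4005 CPM, was no higher than that of N-LKO endothelial-like cells. Hnf4a (248 CPM against 55.9 CPM), a hepatocyte transcription factor that is not among those markers, was higher. So was Cps1 (2418 CPM against 492 CPM), a urea cycle enzyme of hepatocytes that is among them. The values of the 8 genes are therefore given for the class and for its Malat1-intermediate and Malat1-rich cells.

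Ppara, the receptor, was the gene of the 8 with the largest difference in the hepatocyte-like class, and that difference was not seen in Malat1-intermediate cells pooled over clusters. Its level was 254 CPM (247 to 262, 4280 UMIs) in WT against 714 CPM (697 to 731, 6663 UMIs) in N-LKO hepatocyte-like cells. The log2 ratio of N-LKO over WT was 1.49 (1.43 to 1.55), or 1.05 above the median of 0.44 over all 10737 genes with at least 5 CPM in either library. In Malat1-intermediate cells Ppara stood at 241 CPM (233 to 249) in WT against 225 CPM (211 to 239) in N-LKO, which gave a log2 ratio of −0.10 (−0.20 to 0.00) whose interval reached 0. In Malat1-rich cells it stood at 761 CPM (694 to 832) and 1185 CPM (1154 to 1216), a log2 ratio of 0.64 (0.51 to 0.78). Within each library, Malat1-rich cells thus held more Ppara than Malat1-intermediate cells, with a log2 ratio of 1.66 (1.52 to 1.80) in WT and 2.40 (2.30 to 2.50) in N-LKO, against medians over all genes of 0.58 and 0.74. Malat1-poor WT cells held 141 CPM (122 to 162). Within single clusters, no Ppara difference between the libraries exceeded counting error. The log2 ratio of N-LKO over WT was 0.23 (−0.16 to 0.68) in cluster 5, with 19 WT cells. In cluster 17, with 10 N-LKO cells, it was 0.22 (−0.46 to 0.78), and in cluster 9, with 17, it was 0.89 (−0.69 to 1.92). Cluster 6 gave 0.38 (−0.07 to 0.90) and cluster 0 gave −0.41, with an interval that also held 0. The order of Ppara followed that of Malat1 within each library, and the part of nuclear RNA in the difference between the libraries was not tested.

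Shares of cells were compared after each cell had been thinned to 1000 UMIs. At least 1 Ppara UMI was seen in 20.7% of the hepatocyte-like cells of WT and 43.4% of those of N-LKO, a difference of 22.6 percentage points (21.0 to 24.3), and without thinning the shares were 31.3% and 58.8%. In Malat1-intermediate cells the shares were 20.7% and 19.5%, a difference of −1.28 points (−3.15 to 0.68). T-like cells, which are not known as a main site of Ppara, had shares of 7.49% in WT and 22.0% in N-LKO (9.18% and 28.3% without thinning), so part of the shares in any class can be background. Median depths before thinning were 1520 and 1781 UMIs in hepatocyte-like and 1190 and 1352 UMIs in T-like cells.

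Cpt1a, the entry step into mitochondria, differed little. It stood at 149 CPM (144 to 155) in WT against 183 CPM (175 to 192) in N-LKO hepatocyte-like cells, a log2 ratio of 0.30 (0.21 to 0.39) that lay 0.15 below the median of all genes. The levels in Malat1-intermediate cells were 155 CPM (149 to 162) and 154 CPM (143 to 166). The log2 ratio there was −0.01 (−0.14 to 0.11). In Malat1-rich cells the ratio was 0.15 (−0.12 to 0.44), with 191 CPM in WT against 213 CPM in N-LKO.

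Ehhadh, the peroxisomal bifunctional enzyme, differed in opposite directions in Malat1-intermediate and Malat1-rich cells. The Malat1-rich cells came from a different cluster in each library. The Malat1-intermediate cells mostly did too, from cluster 0 in WT and cluster 6 in N-LKO. In Malat1-intermediate cells it stood at 105 CPM (100 to 111, 1552 UMIs) in WT against 62.0 CPM (54.9 to 69.6, 282 UMIs) in N-LKO, which gave a log2 ratio of −0.76 (−0.95 to −0.58). In Malat1-rich cells it stood at 106 CPM (81.9 to 134, 67 UMIs) in WT against 187 CPM (175 to 200, 885 UMIs) in N-LKO, which gave a log2 ratio of 0.81 (0.46 to 1.20). Free RNA, the RNA outside cells that enters every droplet, was bounded by the largest share that markers of other cell types allowed. In Malat1-intermediate cells Ehhadh lay at 1.33 times what free RNA could give in WT and at 5.05 times it in N-LKO. In Malat1-rich cells it lay at 1.93 and 12.5 times. The part of free RNA in these differences was not tested. In WT the 2 kinds of cells held Ehhadh at levels within counting error of each other, with a log2 ratio of Malat1-rich over Malat1-intermediate of 0.01 (−0.37 to 0.36), while in N-LKO that ratio was 1.59 (1.40 to 1.79). The class as a whole, at 107 CPM in WT against 126 CPM in N-LKO, gave 0.23 (0.12 to 0.34), a value that describes neither kind of cell. Within cluster 0 Ehhadh stood at 105 CPM in WT and at 47.8 CPM in the 95 N-LKO cells, from 8 UMIs, a log2 ratio of −1.05 (−2.36 to −0.16). Within cluster 6 it stood at 99.8 CPM in the 114 WT cells and 62.5 CPM in N-LKO, a ratio of −0.71 (−1.30 to 0.02). The higher N-LKO level of Malat1-rich cells was not seen within a cluster. Cluster 5 held 184 CPM in its 19 WT cells, from 9 UMIs, and 187 CPM in N-LKO, a ratio of −0.05 (−0.91 to 1.16), and cluster 17 had 1 Ehhadh UMI in its 10 N-LKO cells. In the thinned cells, Ehhadh was seen in 10.3% of the Malat1-intermediate cells of WT and 5.67% of those of N-LKO, a difference of −4.59 points (−5.72 to −3.33), and in 9.71% and 14.4% of Malat1-rich cells. Without thinning those shares were 16.6% and 12.4% in Malat1-intermediate and 16.8% and 22.2% in Malat1-rich cells, and thinned T-like cells had 7.32% and 3.26%.

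**Figure D1:**
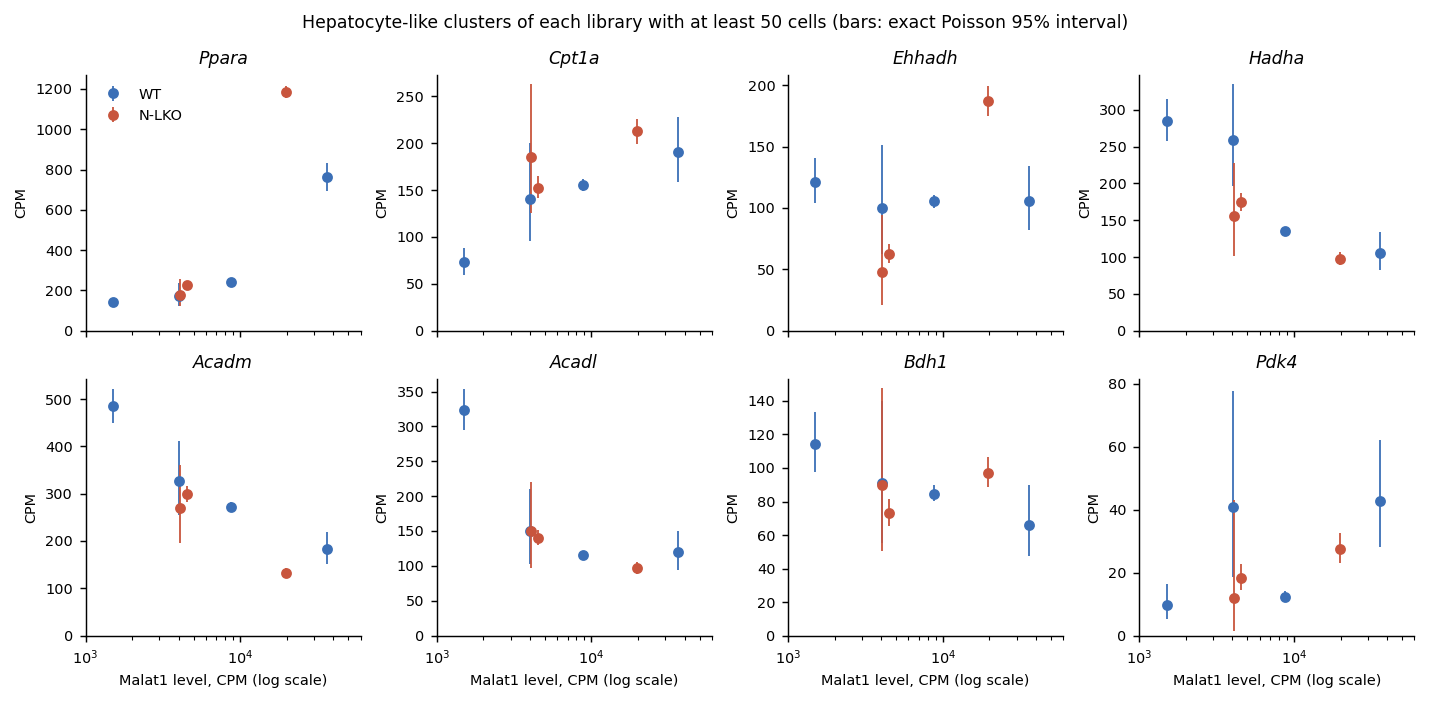
Level of each gene in CPM (vertical axis, from 0) in every hepatocyte-like cluster with at least 50 cells of a library, against the Malat1 level of that cluster in CPM (log axis). Points are WT (blue) or N-LKO (red) and bars are exact Poisson 95% intervals. Ppara is highest in the 2 Malat1-rich clusters (761 and 1185 CPM), Hadha and Acadm are lower there, and Ehhadh is at 187 CPM in the Malat1-rich N-LKO cluster against 62.5 CPM in N-LKO cluster 6.

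The 3 mitochondrial chain-shortening genes, Hadha, Acadm and Acadl, were slightly lower in N-LKO over the whole class and slightly higher in Malat1-intermediate cells. Acadm stood at 288 CPM (280 to 296) in WT against 214 CPM (204 to 223) in N-LKO hepatocyte-like cells, a log2 ratio of −0.43 (−0.50 to −0.35) that lay 0.87 below the median of all genes. In Malat1-intermediate cells it stood at 274 CPM (265 to 282) and 298 CPM (282 to 314), a ratio of 0.12 (0.03 to 0.21), and in Malat1-rich cells at 183 and 133 CPM, a ratio of −0.47 (−0.75 to −0.17). The medium-chain enzyme was thus lower in N-LKO beyond counting error only among the Malat1-rich cells of these 2 kinds. In those cells its level was 0.970 times what free RNA could give in WT and 2.85 times it in N-LKO. The part of free RNA in that difference was not tested. The ratio of Acadm was −0.14 (−0.47 to 0.24) within cluster 6 and −0.005 (−0.48 to 0.40) within cluster 0.

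Hadha, a subunit of the trifunctional protein, stood at 148 CPM in WT against 135 CPM in N-LKO over the class, a ratio of −0.14 (−0.24 to −0.04). In Malat1-intermediate cells it was at 137 CPM (131 to 143) in WT against 174 CPM (162 to 187) in N-LKO, a ratio of 0.35 (0.22 to 0.46). Within cluster 6 its direction was the opposite, with 259 CPM in the 114 WT cells (57 UMIs) and 175 CPM in N-LKO, a ratio of −0.58 (−0.96 to −0.15). The higher Hadha of N-LKO Malat1-intermediate cells therefore was not seen between cells of cluster 6, and in cluster 0 the ratio was 0.23 (−0.42 to 0.76). In Malat1-rich cells Hadha stood at 106 and 97.8 CPM, a ratio of −0.12 (−0.48 to 0.28).

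Acadl, the long-chain enzyme, followed Hadha over the class, with 134 CPM in WT against 118 CPM in N-LKO and a ratio of −0.18 (−0.29 to −0.08). Its levels in Malat1-intermediate cells were 116 CPM (110 to 121) and 140 CPM (130 to 152), a ratio of 0.28 (0.15 to 0.41). The ratio was −0.12 (−0.60 to 0.46) within cluster 6 and 0.40 (−0.26 to 0.94) within cluster 0. In Malat1-rich cells Acadl stood at 120 and 96.5 CPM, a ratio of −0.32 (−0.67 to 0.06). Malat1-poor WT cells, for which N-LKO had too few cells to set beside them, held the highest levels of all 3 genes in hepatocyte-like cells, at 285 CPM of Hadha, 484 CPM of Acadm and 323 CPM of Acadl, and the lowest of Ppara and Cpt1a. They are part of the WT side of the class comparison.

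Bdh1, which makes the ketone body β-hydroxybutyrate, lay at about the same level in both libraries over the class, at 86.4 CPM (82.0 to 91.0) in WT against 85.6 CPM (79.7 to 91.7) in N-LKO, a ratio of −0.01 (−0.14 to 0.11). With free RNA subtracted, the ratio was 1.09. Beneath the class value the 2 kinds of cells went opposite ways. In Malat1-intermediate cells it was at 84.8 and 73.6 CPM, a ratio of −0.20 (−0.38 to −0.03), and in Malat1-rich cells at 66.3 CPM (47.8 to 89.6, 42 UMIs) and 97.2 CPM (88.5 to 106), a ratio of 0.54 (0.09 to 1.04). In these 2 kinds of cells Bdh1 lay at 1.10 and 1.25 times what free RNA could give in WT. In N-LKO it lay at 5.07 and 5.47 times, and the part of free RNA was not tested. The ratio was −0.35 (−0.97 to 0.42) within cluster 6 and 0.13 (−0.76 to 0.81) within cluster 0.

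Pdk4, the kinase that turns off pyruvate dehydrogenase, was the sparsest of the 8, with 232 UMIs in WT and 213 UMIs in N-LKO hepatocyte-like cells. It stood at 13.8 CPM (12.1 to 15.7) and 22.8 CPM (19.9 to 26.1), a ratio of 0.73 (0.45 to 1.00). In Malat1-intermediate cells the ratio was 0.51 (0.11 to 0.89), from 12.7 and 18.0 CPM. In Malat1-rich cells it was −0.65 (−1.24 to 0.02), from 42.6 CPM (27 UMIs) and 27.5 CPM. Within cluster 6 Pdk4 stood at 40.8 CPM in WT from 9 UMIs and at 18.3 CPM in N-LKO, so the depth did not allow a direction there.

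**Figure D2:**
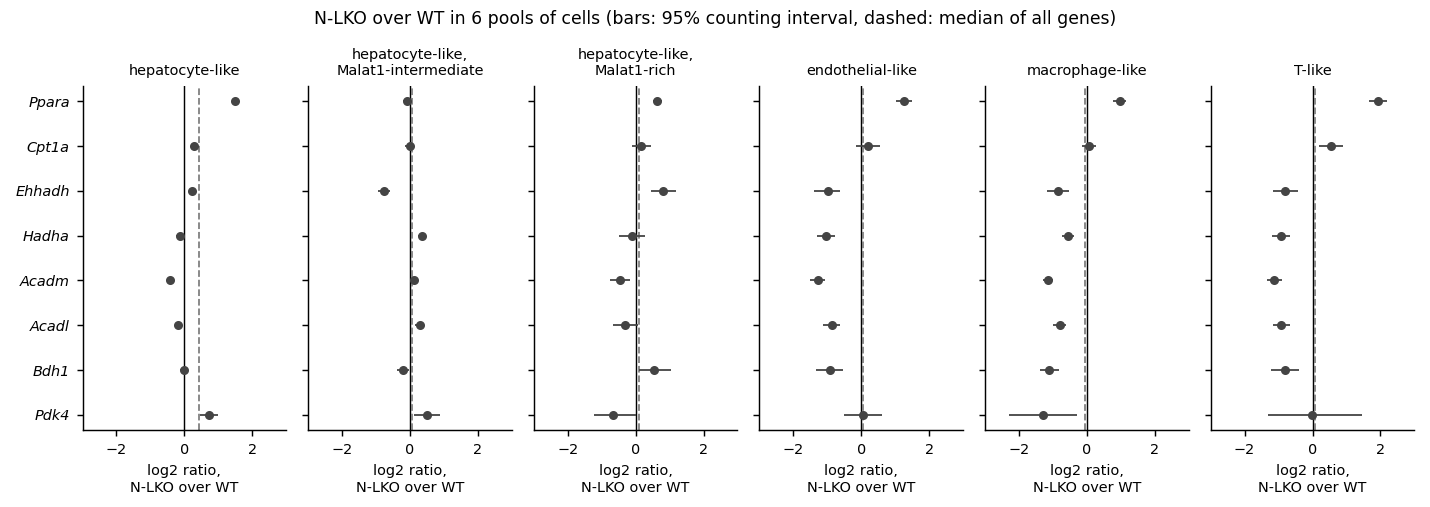
Log2 ratio of N-LKO over WT (horizontal axis) for each gene in 6 pools of cells, with 95% counting intervals as bars and the median of all genes of the pool as a dashed line. Ppara lies at 1.49 over all hepatocyte-like cells but at −0.10 in the Malat1-intermediate ones, and Ehhadh, Hadha, Acadm, Acadl and Bdh1 lie below 0 in endothelial-like, macrophage-like and T-like cells.

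Counted by a difference of at least 1.5-fold, 2 of the 8 genes were higher (Ppara and Pdk4) and none was lower in N-LKO hepatocyte-like cells, where 43.3% of all genes were 1.5-fold higher and 7.28% lower. In Malat1-intermediate cells, 1 was lower (Ehhadh) and none was higher, against 8.53% of all genes lower and 16.3% higher. In Malat1-rich cells, 2 were higher (Ehhadh and Ppara) and 1 was lower (Pdk4, with an interval up to 0.02), against 28.8% higher and 21.2% lower. The median log2 ratio of the 8 genes was 0.11 over the class, beside 0.44 for all genes. It was 0.06 in Malat1-intermediate cells, beside 0.07 for all genes, and 0.01 in Malat1-rich cells, beside 0.09.

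Gene length moved with these ratios across the transcriptome. When genes were cut into 5 equal bins by their span in GENCODE M21, the median log2 ratio in hepatocyte-like cells went from −0.09 in bin 1, the shortest genes, to 1.02 in bin 5. In Malat1-rich cells it went from −0.41 to 0.41, and in Malat1-intermediate cells from 0.31 to −0.05. Ppara and Cpt1a, which span 67.8 and 63.4 kb, lay in bin 4, whose median was 0.70 over the class. Ehhadh, Hadha, Acadm, Acadl and Bdh1 span 22.3 to 36.9 kb and lay in bin 3, with a median of 0.38, and Pdk4 spans 13.0 kb and lay in bin 2, with 0.15. Whether reads in introns were counted is not given in the sources used here, and the part of gene length in the ratios was not tested.

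Along the liver lobule, Ppara, Acadm, Bdh1 and Pdk4 were higher toward the central vein beyond counting error in Malat1-intermediate cells of both libraries. Cpt1a and Ehhadh were so in WT only, and Hadha and Acadl in N-LKO only. The list depended on the cells used. Over all hepatocyte-like cells, the planned set, Ppara, Ehhadh, Acadl, Bdh1 and Pdk4 were higher in both libraries. Hadha and Acadm were so in WT only, and Cpt1a in neither. The share of all genes that were higher toward the central vein was not computed, so these lists are a description only. Malat1-intermediate cells were cut into 3 equal zones by pericentral less periportal marker genes, a range of a score and not a cell type. The zones differed in depth, with median UMIs of 1807 in the periportal and 1456 in the pericentral zone of WT and of 2176 and 1778 in N-LKO, and in Malat1, which stood at 8804 and 8371 CPM in WT and 5172 and 3573 CPM in N-LKO. Glul, a pericentral marker used in the score, went from 106 CPM in the periportal to 1335 CPM in the pericentral zone of WT and from 29.8 to 499 CPM in N-LKO. Pdk4 had the steepest gradient of the 8, from 7.34 to 19.0 CPM in WT and from 10.4 to 26.2 CPM in N-LKO, with log2 ratios of pericentral over periportal of 1.36 (0.82 to 1.95) and 1.32 (0.47 to 2.26). Ppara went from 210 to 268 CPM in WT, a ratio of 0.35 (0.23 to 0.47), and from 202 to 242 CPM in N-LKO, a ratio of 0.26 (0.04 to 0.48).

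In these Malat1-intermediate cells the mitochondrial genes gave larger ratios of pericentral over periportal in N-LKO than in WT. Acadl went from 107 to 119 CPM in WT, a ratio of 0.15 (−0.02 to 0.32), and from 116 to 165 CPM in N-LKO, a ratio of 0.50 (0.22 to 0.79). Acadm gave 0.13 (0.02 to 0.24) in WT and 0.49 (0.30 to 0.68) in N-LKO, and Hadha gave 0.06 (−0.09 to 0.21) and 0.48 (0.23 to 0.73). The intervals of the 2 libraries overlapped for Acadl and did not overlap for Acadm and Hadha, and the differences between gradients were not tested. Over all hepatocyte-like cells the larger N-LKO ratio was not seen for Acadm (0.19 in WT and 0.06 in N-LKO) and Hadha (0.17 and 0.15), and Acadl gave 0.21 and 0.23. In Malat1-intermediate cells these 3 genes lay at 0.742 to 1.05 times the level that free RNA could give in WT and at 5.96 to 9.09 times it in N-LKO, and its part in the gradients was not tested. In the periportal zone the 2 libraries were close for Acadm (256 and 251 CPM), and in the pericentral zone N-LKO was the higher (280 and 352 CPM). Cpt1a ran the other way, with 0.21 (0.06 to 0.35) in WT and −0.22 (−0.50 to 0.05) in N-LKO. Ehhadh was lower in N-LKO in each zone of Malat1-intermediate cells, at 94.5 and 55.4 CPM in the periportal zone, 107 and 60.2 CPM in the middle and 118 and 71.5 CPM in the pericentral zone. Over all hepatocyte-like cells it was lower in N-LKO in the periportal zone (97.8 and 87.7 CPM) and higher in the middle (108 and 157 CPM) and pericentral zones (118 and 138 CPM).

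**Figure D3:**
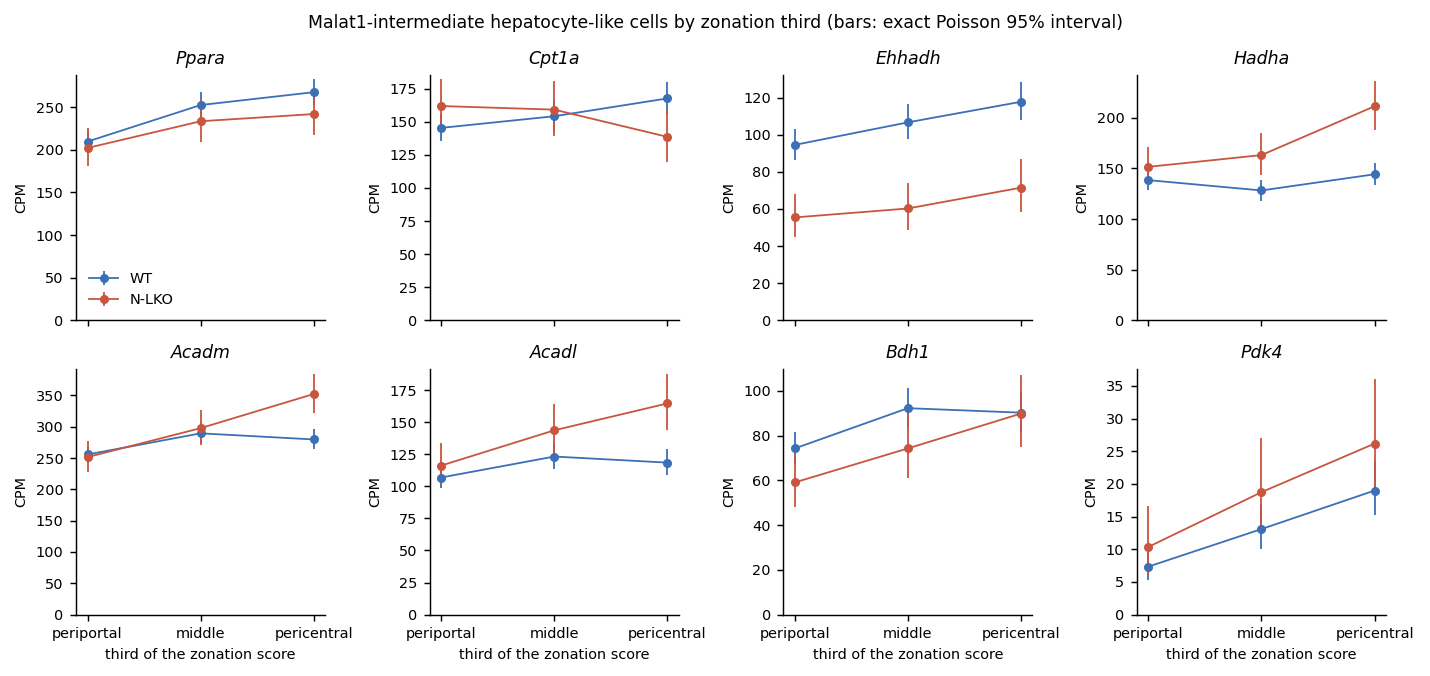
Level of each gene in CPM (vertical axis, from 0) in the periportal, middle and pericentral zones of Malat1-intermediate hepatocyte-like cells, in WT (blue) and N-LKO (red), with exact Poisson 95% intervals. Pdk4 is highest in the pericentral zone of both libraries, Acadm reaches 352 CPM in the pericentral zone of N-LKO against 280 CPM in WT, and Ehhadh is lower in N-LKO in all zones.

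Over the cell classes, Ppara, Ehhadh and Cpt1a were highest in hepatocyte-like cells in both libraries, although in WT the lead of Cpt1a over the next class (neutrophil-like, 94.2 CPM from 107 cells) did not exceed counting error. Bdh1 in hepatocyte-like cells lay beside B-like cells in WT (86.4 and 86.0 CPM). For Acadm in WT the next class lay within counting error, with 288 CPM in hepatocyte-like and 255 CPM in cholangiocyte-like cells. Acadl in WT was not led by hepatocyte-like cells, whose 134 CPM lay beside 148 CPM in endothelial-like and 164 CPM in T-like cells. For Hadha in WT the levels were 148 CPM in hepatocyte-like, 139 CPM in endothelial-like and 154 CPM in T-like cells. Pdk4 was as high in endothelial-like cells, at 23.2 CPM in WT against 23.8 CPM in N-LKO, as in N-LKO hepatocyte-like cells. Its interval in WT hepatocyte-like cells lay below that level, with a log2 ratio of hepatocyte-like over endothelial-like of −0.76 (−1.18 to −0.30).

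Free RNA also differed between the libraries in these genes. The barcodes under 500 UMIs, taken as a measure of it, held 153 CPM of Ppara in WT and 267 CPM in N-LKO, 354 and 136 CPM of Acadm, 203 and 84.1 CPM of Acadl, 169 and 68.4 CPM of Hadha, 99.9 and 51.8 CPM of Bdh1 and 103 and 43.8 CPM of Ehhadh. In T-like cells Ppara stood at 84.9 CPM in WT against 324 CPM in N-LKO, which gave a log2 ratio of 1.93 (1.67 to 2.21), and Acadm at 233 and 107 CPM, a ratio of −1.13 (−1.35 to −0.91). Both differed in the direction in which the free RNA did, but Ppara in N-LKO T-like cells was 2.91 times what free RNA could give. Free RNA was also subtracted at the largest share that markers of other cell types allowed. After this, Ppara in T-like cells stood at 23.5 CPM in WT against 365 CPM in N-LKO and Acadm at 123 and 85.6 CPM. Other levels did not follow the lower free RNA of N-LKO, but the intervals of the 2 libraries overlapped and gave no direction. Ehhadh in hepatic stellate-like cells stood at 33.3 CPM (25.2 to 43.3, 56 UMIs) and 37.3 CPM (26.9 to 50.5, 42 UMIs). Pdk4 in B-like cells stood at 9.56 CPM (2.60 to 24.5, 4 UMIs) and 14.7 CPM (8.71 to 23.2, 18 UMIs). Free RNA held 9.55 and 6.23 CPM of Pdk4.

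In endothelial-like cells 5 of the 8 genes were 1.5-fold lower in N-LKO and 1 (Ppara) was higher, where 16.9% of all genes were lower and 17.4% higher. In macrophage-like cells 5 were lower and 1 was higher, against 14.1% and 10.6%, and in T-like cells 5 were lower and 1 was higher, against 18.1% and 23.4%. Ehhadh, Acadm, Acadl and Bdh1 were among the lower genes in all 3 classes. The median log2 ratio of the 8 genes was −0.90 in endothelial-like, −0.83 in macrophage-like and −0.81 in T-like cells, beside 0.04, −0.05 and 0.07 for all genes. The largest share of free RNA that markers of other cell types allowed was 46.9% in WT and 47.6% in N-LKO endothelial-like cells. The Acadm level of endothelial-like cells was 1.53 times (WT) and 1.61 times (N-LKO) what free RNA could give at that share, and the part of free RNA in the differences was not tested. In WT hepatocyte-like cells the share could be up to 72.9%, and there Hadha, Acadm, Acadl and Bdh1 lay at 0.903 to 1.20 times the level that free RNA could give. In N-LKO, with a share of up to 38.8%, the same 4 genes lay at 3.61 to 5.08 times it. Pdk4 lay 5.18 times (WT) and 8.05 times (N-LKO) above the level that free RNA could give in endothelial-like cells and 7.04 and 6.30 times above it in hepatic stellate-like cells, where it stood at 17.3 and 14.2 CPM.

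**Figure D4:**
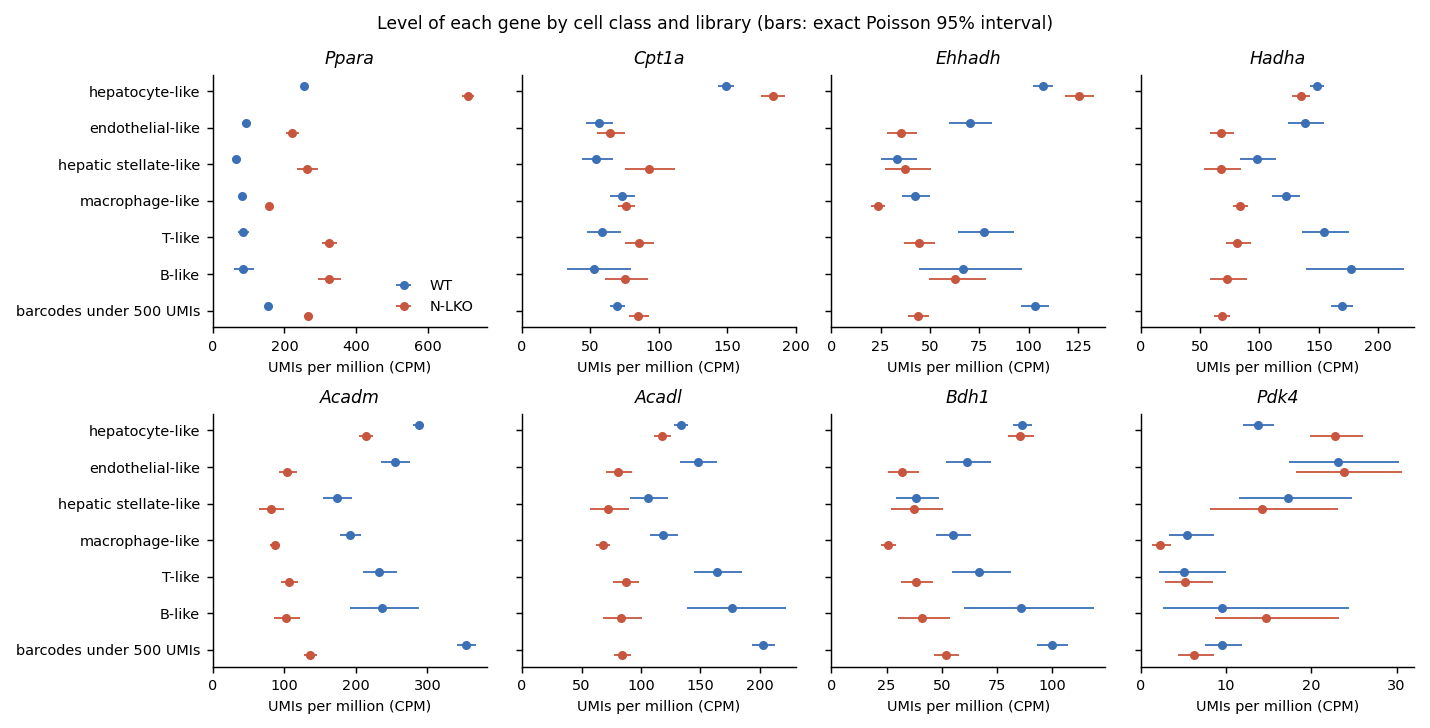
Level of each gene in CPM (horizontal axis, from 0) in 6 cell classes and in barcodes under 500 UMIs, for WT (blue) and N-LKO (red), with exact Poisson 95% intervals. Ppara is higher in N-LKO in every row, with 153 and 267 CPM in barcodes under 500 UMIs, and Acadm is lower in N-LKO in every row, with 354 and 136 CPM there.

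The other 82 genes of the pathway were listed by role, and 78 of them had at least 5 CPM in hepatocyte-like cells of either library. Of these, 16 were 1.5-fold lower and 21 were 1.5-fold higher in N-LKO, with a median log2 ratio of −0.10, or −0.54 relative to all genes, of which 7.28% were lower and 43.3% higher. In Malat1-intermediate cells 9 of 76 were lower and 13 were higher, with a median of −0.04, beside 8.53% and 16.3% of all genes, so that the share of higher genes was near that of all genes. In Malat1-rich cells 27 of 77 were lower and 12 were higher, with a median of −0.35, beside 21.2% and 28.8% of all genes. Each role holds few genes, so its counts are given as a description beside the same shares. Named genes are the most abundant and the most extreme of each role, so that extreme ratios were chosen by their values.

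Among receptor partners and coregulators, no gene of 12 was 1.5-fold lower and 7 were higher over the class (7.28% and 43.3% of all genes), and in Malat1-intermediate cells 1 was lower and none was higher (8.53% and 16.3%). Ncoa2, a coactivator, stood at 95.9 CPM in WT against 291 CPM in N-LKO over the class but at 89.0 and 92.3 CPM in Malat1-intermediate cells. Pparg, the fat-storage relative of Ppara, stood at 22.0 and 93.4 CPM over the class, at 19.6 and 26.8 CPM in Malat1-intermediate cells and at 80.5 and 158 CPM in Malat1-rich cells, ratios of 2.09, 0.46 (0.14 to 0.77) and 0.96 (0.57 to 1.41). Creb3l3, a transcription factor that works with PPARα in fasting, was lower, with 129 and 91.9 CPM over the class and 144 and 72.9 CPM in Malat1-rich cells. Ncor1, a corepressor, stood at 197 and 276 CPM over the class and at 196 and 177 CPM in Malat1-intermediate cells.

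For fatty acid activation and the carnitine shuttle, the leading gene was Acsl1, a long-chain acyl-CoA synthetase. It stood at 515 CPM in WT against 230 CPM in N-LKO Malat1-intermediate cells, a ratio of −1.16 (−1.26 to −1.07), and at 649 and 424 CPM in Malat1-rich cells, a ratio of −0.61 (−0.77 to −0.46). Acsl5 was lower in Malat1-intermediate cells, with 192 and 154 CPM. Cpt2, the inner-membrane partner of Cpt1a, gave −0.45 (−0.68 to −0.24) there, with 62.3 and 45.5 CPM. Cpt1b, the muscle form of the enzyme, stood at 1.31 and 7.60 CPM over the class. In mitochondrial β-oxidation, 2 of 14 genes were 1.5-fold lower and 1 was higher over the class (7.28% and 43.3% of all genes), and in Malat1-intermediate cells none was lower and 2 were higher, where 16.3% of all genes were higher. Etfa and Acaa2, which pass on electrons and cut the shortened chain, stood at 228 and 278 CPM and at 336 and 354 CPM in Malat1-intermediate cells. Echs1 stood at 155 and 143 CPM there but at 104 and 45.0 CPM in Malat1-rich cells, and Eci2 at 71.9 and 84.2 CPM in Malat1-intermediate cells.

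In peroxisomal β-oxidation, both Acaa1b, a thiolase, and Scp2, which encodes a thiolase and a lipid transfer protein, were lower in N-LKO in Malat1-intermediate cells, as Ehhadh was. Acaa1b stood at 944 CPM in WT against 653 CPM in N-LKO there, a ratio of −0.53 (−0.59 to −0.47), and Scp2 at 4141 and 3367 CPM, a ratio of −0.30 (−0.32 to −0.27). In Malat1-rich cells, where Ehhadh was higher in N-LKO, Acaa1b gave −2.03 (−2.16 to −1.89) and Scp2 −0.97 (−1.05 to −0.88). Ehhadh thus went with these genes in Malat1-intermediate cells and against them in Malat1-rich cells. By count, 3 of 13 peroxisomal genes were lower and 3 were higher in Malat1-intermediate cells (8.53% and 16.3% of all genes), and 8 were lower and 1 was higher in Malat1-rich cells (21.2% and 28.8%). Abcd2, a peroxisomal fatty acid transporter, stood at 13.5 and 18.0 CPM in the former and 11.1 and 48.6 CPM in the latter.

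**Figure D5:**
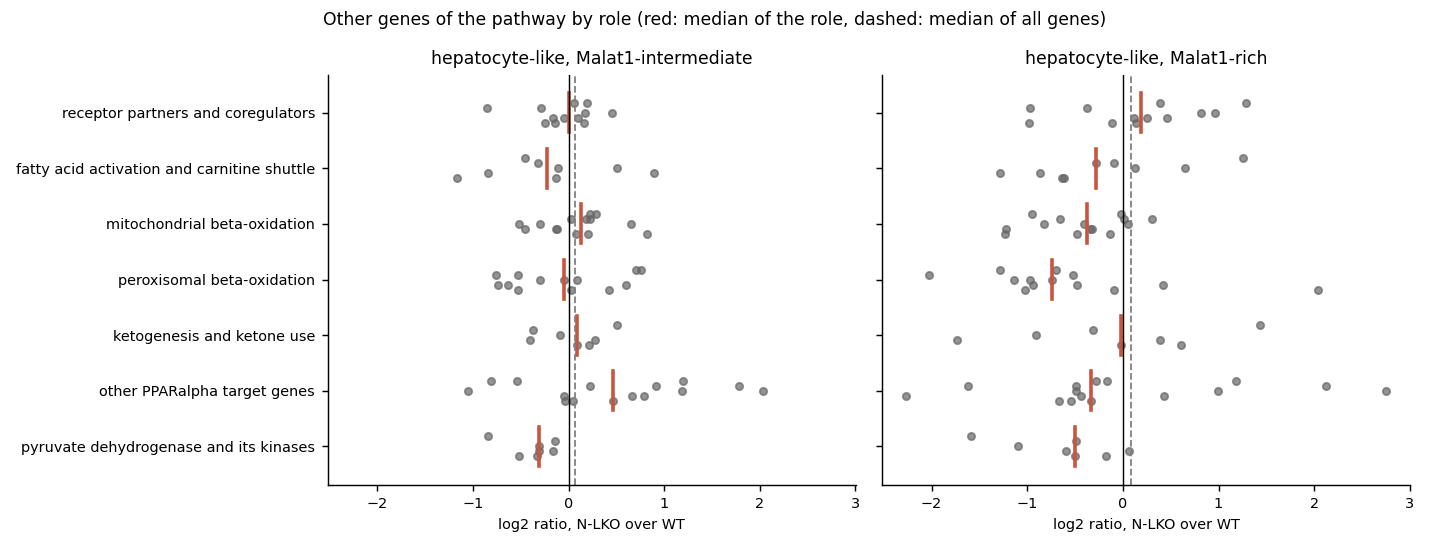
Log2 ratio of N-LKO over WT (horizontal axis) for the other genes of the pathway with at least 5 CPM in either library, by role, in Malat1-intermediate and Malat1-rich hepatocyte-like cells. Each grey point is 1 gene, red bars are medians of the role and the dashed line is the median of all genes. The peroxisomal genes have 3 of 13 past 1.5-fold lower in Malat1-intermediate and 8 of 13 in Malat1-rich cells, where 8.53% and 21.2% of all genes were.

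In ketogenesis and ketone use, none of 7 genes was 1.5-fold lower or higher in Malat1-intermediate cells, with a median log2 ratio of 0.09, and 2 were lower and 2 were higher in Malat1-rich cells, near the shares of all genes (21.2% and 28.8%). Acat1, the thiolase that joins acetyl-CoA units, stood at 252 and 268 CPM in Malat1-intermediate cells, with an interval of the ratio that held 0. Slc16a6, a ketone body exporter, stood at 9.51 and 11.4 CPM and Bdh2 at 16.6 and 12.5 CPM there, intervals that both held 0.

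Other PPARα target genes had a median of 0.46 in Malat1-intermediate cells, where 2 of 15 were 1.5-fold lower and 7 were higher (8.53% and 16.3% of all genes), and of −0.34 in Malat1-rich cells, where 3 of 15 were lower and 4 were higher, near the 21.2% and 28.8% of all genes. Fgf21, the fasting hormone made by the liver, stood at 3.06 CPM in WT against 12.5 CPM in N-LKO Malat1-intermediate cells, a ratio of 2.03 (1.45 to 2.63). Plin2, a lipid droplet coat protein, stood at 284 and 392 CPM there, a ratio of 0.46 (0.38 to 0.54), and at 350 and 220 CPM in Malat1-rich cells, a ratio of −0.67 (−0.88 to −0.45). Cyp4a10, a microsomal fatty acid hydroxylase and classic target, stood at 132 and 74.9 CPM, a ratio of −0.82 (−0.99 to −0.65). Fabp1, the most abundant of the list, stood at 10023 and 9675 CPM in Malat1-intermediate cells and at 6056 and 1258 CPM in Malat1-rich cells.

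Of the pyruvate dehydrogenase group, whose complex PDK4 switches off, 1 of 7 genes was 1.5-fold lower and none was higher in Malat1-intermediate cells, beside 8.53% and 16.3% of all genes. Pdk1 stood at 37.6 CPM in WT against 20.9 CPM in N-LKO there, a ratio of −0.84 (−1.18 to −0.53), opposite in direction to Pdk4. Pdhb, a subunit of the enzyme, gave −0.31 (−0.48 to −0.15), Pdha1 gave −0.16 (−0.36 to 0.03) and Pdhx gave −0.14 (−0.53 to 0.22).

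The genes whose profiles were most like those of the 8 over 19 points, each a class in 1 library with at least 200 cells, are given with Pearson's r among 6705 genes. These points share libraries and free RNA. For Ppara they were Gfra1 (0.971), Gm29966 (0.966) and Prr16 (0.964), for Ehhadh Gclc (0.928), Clpx (0.918) and Hoga1 (0.909), and for Acadm Gstm1 (0.975), Hadh (0.974) and Scp2 (0.973). Among the genes nearest to Bdh1 were Ugp2 (0.970) and Atf5 (0.960). Hadha was nearest to Micos13 (0.952), Prdx3 (0.951) and Eci1 (0.951), Acadl to Hspe1 (0.940), Arpp19 (0.931) and Park7 (0.925), and Cpt1a to Gpld1 (0.911), Slc7a2 (0.901) and Ctcflos (0.892). Pdk4 was under 50 CPM at every point and was left out.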

How the data were processed

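Single-cell suspensions were run on the 10x 3′ v3 system, 1 library per genotype. The deposited files hold UMI counts per gene and barcode, which the authors made with Cell Ranger (7.1.0 in the file headers). The submitters' processing notes name mm9 and Seurat, and intron counting and the gene annotation are not given in the sources used here. The 8 genes and all lists were chosen with earlier results of these data known. Barcodes with at least 1000 UMIs, 400 genes and at most 30% mitochondrial UMIs were kept, and 8.55% (WT) and 10.6% (N-LKO) of them were removed by a doublet score over 0.25, set after the data were seen. Barcodes were not tested for being empty. Cells were clustered with scanpy 1.11.5 and leidenalg 0.10.2 (2000 variable genes without the members and pathway genes, 30 components, 20 neighbours, resolution 0.3). Clusters were named from marker lists by a score of at least 0.1 and at least 3 raised markers, thresholds that were set after the clusters were seen, so that names are rebuilt and not the authors'. The 3 clusters with markers of several types were left out (4.68% of WT and 10.2% of N-LKO cells).

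UMIs were summed per class and library and given as CPM with exact Poisson intervals. Log2 ratios had 0.5 UMI added and exact conditional binomial intervals, and shares had Clopper-Pearson and their differences Newcombe intervals (scipy 1.17.1), all at 95% and for counting error only, since PCR and droplet effects are not in them. The calculation was tested on simulated data. Genes with at least 5 CPM in either library were used for counts past 1.5-fold. Named pathway genes were the 2 with the most UMIs and, with at least 20 UMIs in each library, the highest and lowest ratio of each role over the class. Some genes that this rule names are not reported here. Profiles of log2(CPM + 1) were compared over classes with at least 200 cells, among genes with at least 50 CPM at 1 or more of these points. Promoter windows came from RefSeq (GRCm38.p6) and gene spans from GENCODE M21 (GRCm38). Alternatives changed the cell filters, doublet removal, resolution, scaling, free RNA and choice of hepatocyte-like cells. Free RNA was subtracted at the largest share that markers of other cell types allowed, an upper bound of its part.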

Additional observations from a re-analysis of the deposited data

Results flagged for a closer look

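In Ehhadh, Acadm and Bdh1 the log2 ratio of N-LKO over WT had opposite signs in Malat1-intermediate and Malat1-rich hepatocyte-like cells, with both counting intervals on their own side of 0. The share of all genes with such opposite signs was not computed, so this describes these genes only. Ehhadh gave −0.76 in Malat1-intermediate and 0.81 in Malat1-rich cells, Acadm gave 0.12 and −0.47, and Bdh1 gave −0.20 and 0.54. The Malat1-rich cells came from different clusters in the 2 libraries. The Malat1-intermediate cells also came mostly from different clusters, cluster 0 in WT and cluster 6 in N-LKO. Between cell classes, Ehhadh was 0.23 in hepatocyte-like cells but −0.99 in endothelial-like, −0.86 in macrophage-like and −0.80 in T-like cells. Pdk4 was 0.73 in hepatocyte-like and −1.28 in macrophage-like cells, from 19 UMIs in each library of the latter. With 1 library per genotype, the differences between these ratios were not tested.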

How the results depend on the processing

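No paired analysis was possible because each genotype had 1 library and the labels give no number that pairs them. The median log2 ratio of the 8 genes in hepatocyte-like cells was 0.11, and it moved to −0.13 with a mitochondrial limit of 10% (761 WT and 1054 N-LKO hepatocyte-like cells), 0.92 with free RNA subtracted, −0.33 with median-of-ratios scaling and −0.92 over all barcodes. That of the other pathway genes was −0.10 and moved to −0.24, 0.37, −0.54 and −0.85 under the same settings and to −0.35 in Malat1-rich cells. Bdh1, whose interval held 0 (−0.014), gave 0.14 with at least 2000 UMIs, 1.09 with free RNA subtracted, 0.54 in Malat1-rich cells and 0.13 within cluster 0, the latter 2 chosen after seeing the data. Signs of the other genes turned as follows. Acadl gave 0.016 with at least 500 UMIs and 0.057 with at least 2000, and Pdk4 gave −0.19 with the mitochondrial limit of 10%. Subtracting free RNA at its largest allowed share gave −0.56 for Cpt1a, 0.93 for Hadha and 1.28 for Acadm, and left Acadl and 21 pathway genes without a ratio. Malat1-intermediate cells gave −0.10 for Ppara, −0.010 for Cpt1a, −0.76 for Ehhadh, 0.35 for Hadha, 0.12 for Acadm and 0.28 for Acadl. Median-of-ratios scaling gave −0.15 for Cpt1a and −0.21 for Ehhadh, and all barcodes gave −0.88 for Ehhadh and −0.16 for Pdk4. Over the 11 alternatives planned, Ppara was above 0 in 10. The following were chosen after seeing the data. Without the N-LKO Malat1-rich cluster, Ppara gave −0.14, Ehhadh −0.77, Hadha 0.22, Acadm 0.045 and Acadl 0.065. Malat1-rich cells alone gave −0.65 for Pdk4. Within cluster 0, Ppara gave −0.41, Ehhadh −1.05, Hadha 0.23 and Acadl 0.40, and within cluster 6 Ehhadh gave −0.71 and Pdk4 −1.23. Leaving out barcodes found in both libraries, also chosen then, turned no sign. The cause of each turn was not tested. Depth limits Pdk4 most, with 213 to 232 UMIs in hepatocyte-like cells of a library.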
